A study of Mus musculus with 12 samples.

Results

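The 45 genes described here encode the machinery that carries proteins and RNA through the nuclear envelope: 7 exportins, 5 genes of the Ran cycle, 5 importin alphas, 10 importers of the importin beta family, the mRNA exporter Nxf1 and 17 nucleoporins, the proteins of the nuclear pore. They were chosen by name for that function and not by their values, though with earlier results of these data known. Each matched 1 row among the 56748 genes of the count table. The cells were Ba/F3, a mouse line that normally needs interleukin-3 (IL-3) to grow and that the labels call pro-B. All of them expressed NRAS G12D, a constantly active RAS, and all were sorted into medium without IL-3 and harvested on day 3. They differed in the construct received, which was ETV6 I209S P214L, ETV6 P214L or ETV6 WT together with the fluorescent marker ZsGreen, or ZsGreen alone, with 3 libraries in each of these 4 groups. In each ETV6 construct an internal ribosome entry site (IRES) links ETV6 to ZsGreen, and the promoter is not given in the labels. ETV6 is a transcriptional repressor of the ETS family. The design states that a nuclear export sequence arises with P214L and is to be broken by I209S, and asks if the double change then gives transcripts like those of ETV6 WT. The labels do not say that the 3 libraries of a group came from separate cultures, so the p-values measure only the spread between these libraries, which may be technical.

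Proteins and RNA cross the nuclear pore bound to receptors. Importins bind cargo in the cytoplasm and release it in the nucleus when they meet Ran loaded with GTP, and exportins bind cargo together with that form of Ran and release it in the cytoplasm, where GTP is hydrolysed. Xpo1, also called CRM1, is the exportin that reads leucine-rich nuclear export signals, which is why its level is followed here beside those of the other receptors and of the pore.

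The libraries held 14301683 to 18607595 counts, and every one of the 45 genes had at least 257 counts in every library, so none was left out by the filter on low counts that kept 14794 genes. Levels are CPM, counts scaled to a common library size with TMM factors, which are shares of a library and not amounts per cell. In bulk samples such as these, fewer cells of a type and less RNA per cell cannot be told apart. A gene was called higher or lower at an adjusted p under 0.05 in edgeR's quasi-likelihood test over all genes, and every adjusted p is from that fit. Etv6 itself averaged 99.1 ± 12 CPM in I209S P214L cells, 103 ± 4.64 CPM in P214L cells, 109 ± 11.4 CPM in ETV6 WT cells and 81.7 ± 5.03 CPM in ZsGreen cells (SD, n = 3), and counts of the construct and of the endogenous gene are not told apart. Of 13 B lineage markers only 3 passed the filter, and Igll1, Rag1 and Vpreb2 had no count in any library. On the second principal component the P214L libraries had the lowest values, at -28.5, -21.2 and -26.1. At its other end ZsGreen 1 stood apart from all other libraries (70.7), followed by ETV6 WT 1 (22.4) and I209S P214L 1 (21.2). Those last libraries also held the least 18S ribosomal RNA, at 1.58% of counts in ETV6 WT 1 and 1.35% in I209S P214L 1, where the other libraries held up to 5.90%.

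Together the 45 genes took 0.577 ± 0.0202% of all counts in I209S P214L cells, 0.705 ± 0.0168% in P214L cells, 0.594 ± 0.0216% in ETV6 WT cells and 0.781 ± 0.00303% in ZsGreen cells. The libraries of I209S P214L and ETV6 WT cells overlapped in this share, and all of them lay below every P214L library, which lay below every ZsGreen library. In the test of any difference among the 4 groups 34 of the 45 genes were called, against 41.0% of all genes tested. In ETV6 WT cells against ZsGreen cells 31 genes were lower and 1 was higher, where 18.2% of all genes were called lower and 19.5% higher. I209S P214L cells against ZsGreen cells gave 33 lower and 2 higher, with 20.7% and 20.8% of all genes called in those directions. P214L cells against ZsGreen cells gave only 4 lower and none higher, against 1.61% and 3.47% of all genes. The 3 comparisons share their ZsGreen libraries, so they are not independent of one another.

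**Figure D1:**
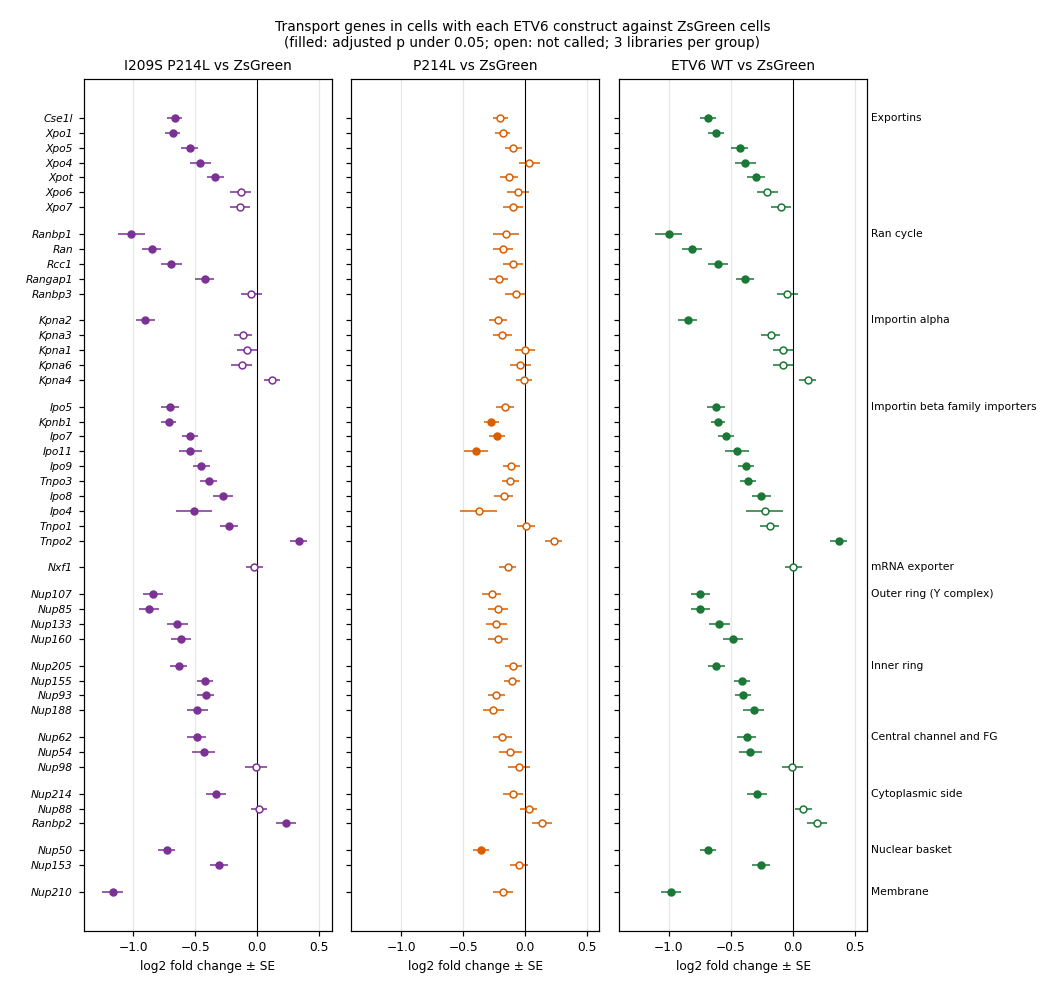
Log2 fold change with its SE (x axis) for the 45 genes (y axis, grouped by role) in I209S P214L, P214L and ETV6 WT cells against ZsGreen cells, 3 libraries per group. Filled points were called at an adjusted p under 0.05: 35 in I209S P214L, 4 in P214L and 32 in ETV6 WT cells, with all but Tnpo2 and Ranbp2 of the called genes below 0.

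Short motifs were counted near the start sites of these genes. RefSeq promoter windows of build GRCm38.p6, from 250 bases before to 50 bases after a start site, were found by symbol for 37 of the 45 genes (44 windows). The following windows show Xpo1, the receptor of leucine-rich signals, Ran and Kpna2, which fell with ETV6 WT, Nup155, whose window holds an ETS motif, and Tnpo2, which rose (1 of its 2 windows). They lie at chr11:23255791-23256090 on the plus strand for Xpo1, chr5:129019906-129020205 on the plus strand for Ran, chr11:106999476-106999775 on the minus strand for Kpna2, chr15:8109063-8109362 on the plus strand for Nup155 and chr8:85036643-85036942 on the plus strand for Tnpo2. Each is printed 5′ to 3′ in the direction of its gene. Capitals mark every match, on either strand, to the E box CACGTG bound by MYC and related factors, the ETS motif CCGGAAGT, the NRF1 motif, whose letters are the first capitals in the Ran window, and the CCAAT box, and no match overlaps another.
Xpo1: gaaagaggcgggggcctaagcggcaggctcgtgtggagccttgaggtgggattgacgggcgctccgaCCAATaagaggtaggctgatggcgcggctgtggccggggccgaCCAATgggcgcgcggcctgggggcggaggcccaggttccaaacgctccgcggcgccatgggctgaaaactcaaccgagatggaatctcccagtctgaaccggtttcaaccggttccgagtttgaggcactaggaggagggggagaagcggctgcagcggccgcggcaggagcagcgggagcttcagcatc
Ran: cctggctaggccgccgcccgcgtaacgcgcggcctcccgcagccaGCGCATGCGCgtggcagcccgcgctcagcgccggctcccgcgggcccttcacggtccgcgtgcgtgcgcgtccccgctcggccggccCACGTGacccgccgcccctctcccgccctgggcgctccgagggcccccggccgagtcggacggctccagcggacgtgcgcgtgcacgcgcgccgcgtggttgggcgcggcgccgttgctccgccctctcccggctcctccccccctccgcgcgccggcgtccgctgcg
Kpna2: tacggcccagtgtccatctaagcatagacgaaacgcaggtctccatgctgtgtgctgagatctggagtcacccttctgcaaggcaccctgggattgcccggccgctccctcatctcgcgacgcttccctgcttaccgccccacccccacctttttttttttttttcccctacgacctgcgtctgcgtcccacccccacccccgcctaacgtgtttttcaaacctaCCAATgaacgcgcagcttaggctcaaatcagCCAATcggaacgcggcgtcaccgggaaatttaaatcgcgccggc
Nup155: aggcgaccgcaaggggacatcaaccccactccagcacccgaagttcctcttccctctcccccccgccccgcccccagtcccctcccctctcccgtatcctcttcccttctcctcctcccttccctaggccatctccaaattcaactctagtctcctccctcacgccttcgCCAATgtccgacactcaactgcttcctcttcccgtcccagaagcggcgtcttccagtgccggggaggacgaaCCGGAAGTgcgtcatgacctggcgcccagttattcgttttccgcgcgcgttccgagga
Tnpo2: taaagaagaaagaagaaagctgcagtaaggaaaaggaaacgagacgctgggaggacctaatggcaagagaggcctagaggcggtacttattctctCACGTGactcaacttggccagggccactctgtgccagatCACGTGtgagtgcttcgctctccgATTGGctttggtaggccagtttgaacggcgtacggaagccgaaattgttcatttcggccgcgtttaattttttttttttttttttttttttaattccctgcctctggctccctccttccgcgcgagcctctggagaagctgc
Xpo1 held CCAAT boxes at -183 and -140 from its start site and none of the other motifs. Ran held an NRF1 motif at -205 and an E box at -118, and Kpna2 held CCAAT boxes at -25 and 6. Nup155 held a CCAAT box at -80 and an ETS motif at -8. Tnpo2 held E boxes at -155 and -116 and a CCAAT box on the other strand at -92. Over all 44 windows the NRF1 motif was in 5 (11.4%), where 2.11% of the 12396 promoters of tested genes and 0.971% of all 32851 promoters held it. Its 5 genes were Nup107, Nup50, Nup62, Ran and Xpo5, each of which was lower in ETV6 WT cells than in ZsGreen cells, as were 23 of the 32 genes with a window but without the motif. The E box was in 9 windows (20.5%), against 9.69% of promoters of tested genes and 7.15% of all. Its 9 genes, Ipo4, Ipo7, Nup188, Nup54, Nup93, Ran, Ranbp2, Tnpo2 and Xpot, included 6 called lower in ETV6 WT cells, 1 called higher, Tnpo2, and 2 not called, while 22 of the 28 genes without it were lower. The ETS motif was in 4 windows (9.09%), those of Ipo4, Nup155, Nup54 and Tnpo3, against 8.49% of promoters of tested genes and 3.89% of all, and 3 of these 4 genes were lower beside 25 of the 33 without it. The CCAAT box was in 20 windows (45.5%), against 37.9% and 37.4%, with 12 of its 18 genes lower beside 16 of the 19 without it. Differences in direction between genes with and without a motif were not tested. A match is a run of letters and does not show binding.

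With ETV6 WT, exportins, the Ran cycle and most of the pore were lower than with ZsGreen alone. The median log2 fold change of the 45 genes was -0.38, beside 0.03 over all genes tested. Among the exportins 5 of 7 fell, Cse1l, Xpo1, Xpo5, Xpo4 and Xpot. Xpo1 (ENSMUSG00000020290; chromosome 11, 23206041 to 23248249 on mm39) had 156, 163 and 157 CPM in I209S P214L cells, 223, 222 and 229 CPM in P214L cells, 156, 165 and 176 CPM in ETV6 WT cells and 252, 251 and 259.9 CPM in ZsGreen cells. The I209S P214L and ETV6 WT libraries overlapped, and no library of either reached those of P214L or ZsGreen cells. Its log2 fold change in ETV6 WT cells was -0.62 ± 0.061 (SE, adjusted p = 2.99e-07), a fall of 35%. Cse1l, the exportin that returns importin alpha to the cytoplasm (ENSMUSG00000002718; chromosome 2, 166747960 to 166788309), had 119, 123 and 119 CPM in I209S P214L cells, 164, 167 and 167 CPM in P214L cells, 117, 112 and 127 CPM in ETV6 WT cells and 193, 192 and 187 CPM in ZsGreen cells, with the 4 groups placed as for Xpo1. It fell by 0.68 ± 0.063 on the log2 scale (adjusted p = 1.25e-07), so Xpo1 did not have the lowest value among the exportins. Over the 45 genes Xpo1 ranked 9 from the lowest, and its difference from the other genes was not tested. Xpo5, which carries microRNA precursors, fell by 0.43 (adjusted p = 7.29e-05), and Xpot, the exportin of transfer RNA, by 0.30 (adjusted p = 0.00282). Xpo4 had 48.9, 45.3 and 44.2 CPM in I209S P214L cells, 69.1, 63 and 62.5 CPM in P214L cells, 47.9, 45 and 52.7 CPM in ETV6 WT cells and 62, 66.7 and 61.6 CPM in ZsGreen cells, where P214L and ZsGreen libraries overlapped, and fell in ETV6 WT cells by 0.38 (adjusted p = 0.00151). Xpo6, which exports profilin with actin, at -0.21, and Xpo7, at -0.10, were not called in any comparison. Xpo7 overlaps Dok2 on the opposite strand, a gene of like level, so its count is uncertain where strand was not used.

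Of the Ran cycle 4 of 5 genes fell. Ran, the small GTPase that gives transport its direction (ENSMUSG00000029430; chromosome 5, 129097133 to 129101387), had 439, 368 and 370.4 CPM in I209S P214L cells, 616, 645 and 619 CPM in P214L cells, 455, 384 and 372 CPM in ETV6 WT cells and 702, 717 and 707 CPM in ZsGreen cells. ZsGreen and P214L libraries were all higher than every library of the other groups, and in I209S P214L and ETV6 WT cells the first library was the highest. In ETV6 WT cells Ran fell by 0.81 ± 0.08 on the log2 scale (adjusted p = 2.77e-07). Ranbp1, a cofactor of GTP hydrolysis on Ran (ENSMUSG00000005732; chromosome 16, 18057648 to 18066596), had 40.4, 48.1 and 41.7 CPM in I209S P214L cells, 73, 84.1 and 78.9 CPM in P214L cells, 38.7, 50.7 and 41.8 CPM in ETV6 WT cells and 80.6, 85.1 and 97.1 CPM in ZsGreen cells. It had the lowest log2 fold change of the 45 genes in ETV6 WT cells, -1.002 ± 0.11 (adjusted p = 7.55e-07), and its P214L and ZsGreen libraries overlapped. The Ranbp1 gene overlaps Trmt2a on the opposite strand, at a mean of 68.8 CPM against 63.3 CPM for Ranbp1. Its count is therefore uncertain where strand was not used. Rcc1, the exchange factor that loads Ran with GTP on chromatin, had 70.3, 64.7 and 62.4 CPM in I209S P214L cells, 97.2, 100.4 and 99.9 CPM in P214L cells, 79.1, 69.1 and 62.1 CPM in ETV6 WT cells and 108, 105 and 106 CPM in ZsGreen cells, again with no ETV6 WT library up to the ZsGreen level. Rcc1 fell by 0.60 (adjusted p = 1.33e-05) and Rangap1, the activator of GTP hydrolysis at the cytoplasmic side, by 0.39 (adjusted p = 0.000412), with Zc3h7b overlapping the second on the opposite strand. Ranbp3, a cofactor of Xpo1, stood at -0.05 with overlapping libraries in all 4 groups, 108, 97.6 and 97 CPM in I209S P214L cells, 94.4, 99.7 and 102 CPM in P214L cells, 115, 91.9 and 95.8 CPM in ETV6 WT cells and 110.4, 101 and 101 CPM in ZsGreen cells.

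The importin alphas, adaptors that read the classical import signal, were split. Kpna2 (ENSMUSG00000018362; chromosome 11, 106879455 to 106890367) had 134, 157 and 142 CPM in I209S P214L cells, 229, 237 and 231 CPM in P214L cells, 149, 139 and 161 CPM in ETV6 WT cells and 284, 271 and 254 CPM in ZsGreen cells. It fell in ETV6 WT cells by 0.85 ± 0.074 on the log2 scale (adjusted p = 6.56e-08), with no overlap between ETV6 WT and ZsGreen libraries. None of its 4 paralogs was called in any of the 6 comparisons, and in ETV6 WT cells their log2 fold changes were -0.18 for Kpna3, -0.08 for Kpna1, -0.08 for Kpna6 and 0.12 for Kpna4. Kpna4 had 139, 132 and 128 CPM in I209S P214L cells, 124, 117 and 125 CPM in P214L cells, 127, 131 and 142 CPM in ETV6 WT cells and 122, 121 and 125 CPM in ZsGreen cells, where every I209S P214L and ETV6 WT library lay above every ZsGreen library by an amount that was not called. Per length, Kpna2 made up 49.7 ± 2.19% of the summed FPKM of the 5 importin alphas in I209S P214L cells, 62.0 ± 1.56% in P214L cells, 50.9 ± 0.928% in ETV6 WT cells and 64.1 ± 2.27% in ZsGreen cells. FPKM is the count scaled by gene length and library size, as the authors deposited it. Every I209S P214L and ETV6 WT library lay below every P214L and ZsGreen library in this share, as the plot of family shares shows, and the difference was not tested.

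Among the 10 importers of the importin beta family 7 fell in ETV6 WT cells and 1 rose. Kpnb1, importin beta, the partner of importin alpha (ENSMUSG00000001440; chromosome 11, 97050540 to 97078707), had 432, 402 and 395 CPM in I209S P214L cells, 566, 546 and 556 CPM in P214L cells, 467, 421 and 439 CPM in ETV6 WT cells and 675, 658 and 684 CPM in ZsGreen cells. Here the P214L libraries lay below all ZsGreen libraries and above those of the other constructs. Kpnb1 fell in ETV6 WT cells by 0.60 ± 0.06 on the log2 scale (adjusted p = 2.97e-07). Ipo5, which imports ribosomal proteins among other cargo, had 315, 269 and 267 CPM in I209S P214L cells, 403, 413 and 423 CPM in P214L cells, 327, 276 and 299 CPM in ETV6 WT cells and 466, 459.7 and 459 CPM in ZsGreen cells, placed like Kpnb1, and fell by 0.62 (adjusted p = 2.86e-06). Ipo7, which shares that cargo, fell by 0.54 (adjusted p = 2.36e-06). Ipo11 fell by 0.45, Ipo9 by 0.38, Ipo8 by 0.25 and Tnpo3, the carrier of SR splicing factors, by 0.36, the last with Irf5 overlapping it on the opposite strand. Tnpo1 (-0.19) and Ipo4 (-0.23) were not called. Tnpo2, a close relative of Tnpo1 that also binds PY signals (ENSMUSG00000031691; chromosome 8, 85763544 to 85784212), had 168, 183 and 179 CPM in I209S P214L cells, 170.0, 156 and 167 CPM in P214L cells, 179.6, 179.7 and 184 CPM in ETV6 WT cells and 129, 142 and 149.6 CPM in ZsGreen cells. Every library with a construct lay above every ZsGreen library, and Tnpo2 rose in ETV6 WT cells by 0.37 ± 0.068 (adjusted p = 0.000291). Of the summed FPKM of Tnpo1 and Tnpo2, the share of Tnpo2 was 61.9 ± 3.29% in I209S P214L cells, 56.2 ± 0.705% in P214L cells, 61.9 ± 1.42% in ETV6 WT cells and 52.3 ± 1.80% in ZsGreen cells. Nxf1, the receptor that carries most mRNA and does not use Ran, was at 0.00 and was called in no comparison.

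**Figure D2:**
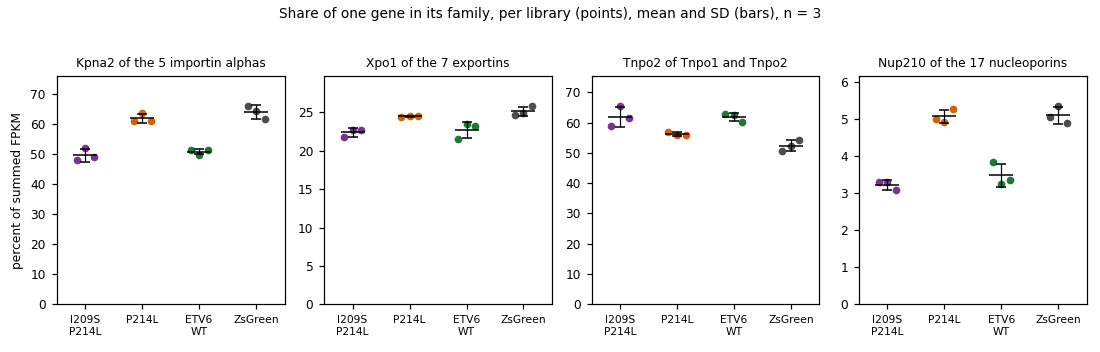
Share of 1 gene in the summed FPKM of its family (y axes, percent) in each library (points) of the 4 groups (x axes), with group mean and SD (bars), n = 3. Kpna2 took 49.7% of the importin alphas in I209S P214L cells, 62.0% in P214L cells, 50.9% in ETV6 WT cells and 64.1% in ZsGreen cells, and Nup210 took 3.24%, 5.08%, 3.49% and 5.11% of the nucleoporins in the same groups.

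Of the 17 nucleoporins 14 fell with ETV6 WT and none rose, with a median of -0.40. All 4 genes followed here from the outer ring, the Y-shaped scaffold, fell. Nup107 had 47.1, 46.4 and 44.9 CPM in I209S P214L cells, 66.4, 74.4 and 65 CPM in P214L cells, 50.7, 47.4 and 49.8 CPM in ETV6 WT cells and 79.6, 81.3 and 87 CPM in ZsGreen cells, with the groups in the order seen for Kpnb1, and fell by 0.75 ± 0.079 (adjusted p = 6.45e-07). Nup85 had 68.6, 62.7 and 68.4 CPM in I209S P214L cells, 109, 105 and 101 CPM in P214L cells, 78.6, 66.6 and 72.5 CPM in ETV6 WT cells and 124, 111 and 129.9 CPM in ZsGreen cells, with P214L libraries below those of ZsGreen and above the rest. It fell by 0.75, Nup133 by 0.59 and Nup160 by 0.48. The inner ring that holds the scaffold to the membrane also fell in the 4 genes followed here. Nup205 had 134, 137 and 139 CPM in I209S P214L cells, 201, 199.6 and 196 CPM in P214L cells, 146, 125 and 144 CPM in ETV6 WT cells and 209.1, 204 and 224 CPM in ZsGreen cells, and its ETV6 WT libraries did not reach either P214L or ZsGreen cells. It fell by 0.62 (adjusted p = 1.19e-06), Nup155 by 0.41, Nup93 by 0.40 and Nup188 by 0.32. Of the nucleoporins with FG repeats in the central channel, Nup62 fell by 0.37 and Nup54 by 0.35, while Nup98 stood at 0.00. Nup62 overlaps Atf5 on the opposite strand.

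Of the cytoplasmic side of the pore Nup214 fell by 0.29 (adjusted p = 0.00776), although Fam78a overlaps it on the opposite strand at a like level. Its partner Nup88 was at 0.08, and Rabep1 overlaps that gene in the same way. Ranbp2, the SUMO ligase of the cytoplasmic filaments that binds Ran, had 228, 227 and 242 CPM in I209S P214L cells, 212, 216 and 224 CPM in P214L cells, 199.6, 219 and 260.3 CPM in ETV6 WT cells and 195, 198 and 201 CPM in ZsGreen cells. Its ETV6 WT libraries spread widely and overlapped those of every other group, and its 0.19 in ETV6 WT cells was not called (adjusted p = 0.0621). In the nuclear basket Nup50 had 150.5, 139 and 146 CPM in I209S P214L cells, 188, 189 and 188 CPM in P214L cells, 158, 145 and 147 CPM in ETV6 WT cells and 260.0, 235 and 228 CPM in ZsGreen cells, and fell by 0.69 ± 0.066 (adjusted p = 2.41e-07). Its P214L libraries were between those of ZsGreen and the other constructs. Nup153 fell by 0.26 (adjusted p = 0.0087). Nup210, a membrane nucleoporin whose level differs between tissues (ENSMUSG00000030091; chromosome 6, 90990050 to 91093811), had 98.5, 93.9 and 90.2 CPM in I209S P214L cells, 186, 180.1 and 194 CPM in P214L cells, 123, 93.1 and 105 CPM in ETV6 WT cells and 212, 217 and 205 CPM in ZsGreen cells. It fell in ETV6 WT cells by 0.98 ± 0.083 (adjusted p = 4.83e-08), with no overlap between ETV6 WT and ZsGreen libraries. Of the calls in ETV6 WT against ZsGreen cells, those of Nup153, Nup188 and Nup214 were lost without ETV6 WT 2, that of Ipo8 without ZsGreen 2, and that of Nup54 without the first libraries of ZsGreen, ETV6 WT and I209S P214L together.

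**Figure D3:**
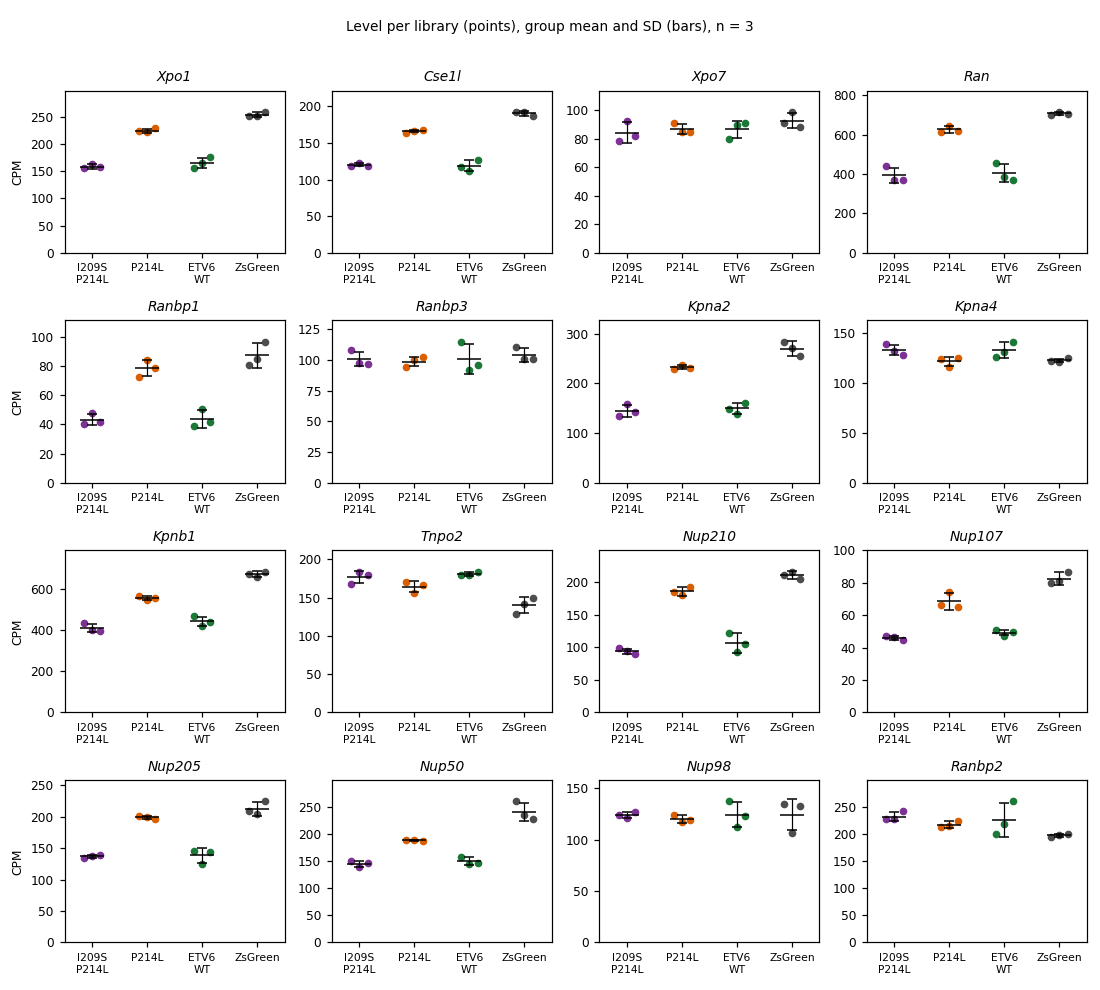
CPM (y axes, from 0) of 16 transport genes in each library (points) of I209S P214L, P214L, ETV6 WT and ZsGreen cells (x axes), with group mean and SD (bars), n = 3. Xpo1, Ran, Kpna2 and Nup210 show I209S P214L and ETV6 WT libraries together below P214L and ZsGreen libraries, whereas the groups overlap for Xpo7, Ranbp3 and Nup98.

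P214L against ZsGreen asks how much of that remains when ETV6 carries the export signal. The median of the 45 genes was -0.14, beside 0.01 over all genes tested, and 39 of the 45 lay below 0. Between libraries, 24 genes had every P214L value below every ZsGreen value and 2 had every P214L value above, where 12.2% and 13.5% of all genes did so. The 4 genes called lower were Kpnb1 (-0.27 ± 0.059, adjusted p = 0.0102), Nup50 (-0.36 ± 0.066, adjusted p = 0.00322), Ipo11 (-0.40 ± 0.095, adjusted p = 0.0195) and Ipo7 (-0.22 ± 0.063, adjusted p = 0.0482). Ipo11 had 48, 44.1 and 45.4 CPM in I209S P214L cells, 45.7, 55.3 and 50.8 CPM in P214L cells, 48.3, 46.1 and 51.7 CPM in ETV6 WT cells and 67.2, 72.9 and 59.8 CPM in ZsGreen cells, and its P214L libraries overlapped those of the other constructs but none from ZsGreen cells. Xpo1 was at -0.18 ± 0.061 (95% interval -0.31 to -0.05, adjusted p = 0.105), with all 3 P214L libraries below all ZsGreen libraries. Ran, at -0.18 (adjusted p = 0.245), and Cse1l, at -0.20 (adjusted p = 0.0748), were not called either. These 3 genes did pass in some alternatives. DESeq2 called Xpo1 (adjusted p = 0.0314) and Cse1l (adjusted p = 0.0179) but not Ran. All 3 were called by edgeR with only the 6 libraries compared, with an adjusted p of 0.0358 for Xpo1, 0.0183 for Ran and 0.0243 for Cse1l, and without both ETV6 WT 1 and I209S P214L 1. In the authors' deposited table their adjusted p was 0.00585 for Xpo1, 2.96e-05 for Ran and 0.00547 for Cse1l. Over the alternatives the highest adjusted p was 0.323 for Xpo1, 0.469 for Ran and 0.253 for Cse1l. Among the 4 calls, Ipo7 was lost in 11 alternatives (adjusted p up to 0.166), and Ipo11 in 4 (up to 0.128), without ZsGreen 1, ZsGreen 2, P214L 1 or P214L 3. The count of calls depended on the fit, with 12 of the 45 genes called by DESeq2 and 7 by limma-voom. It was 15 when the fit held only the 6 libraries compared and 14 without both ETV6 WT 1 and I209S P214L 1. Leaving out ZsGreen 1, ZsGreen 2, P214L 1 or P214L 3 gave 2, and leaving out ETV6 WT 1 gave 8. Calls over all genes moved too, from 751 of 14794 to 1188 with DESeq2 and 816 with limma-voom. They were 1102 of 13542 with only the 6 libraries and 1224 of 15307 without ETV6 WT 1 and I209S P214L 1. Without ZsGreen 1, ZsGreen 2, P214L 1 or P214L 3 they were 515, 674, 369 and 390, and without ETV6 WT 1 they were 960. The authors' deposited table calls 16 of the 45 lower and 1 higher in P214L cells, from log2 fold changes within 0.0014 of those given here. Its calls over all genes were not counted here.

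P214L against ETV6 WT compares the constructs themselves. Here 22 of the 45 genes were higher in P214L cells and none was lower, against 14.6% of all genes in each direction. The median was 0.21, beside 0.00 over all genes. The 22 were 4 exportins, 3 genes of the Ran cycle, Kpna2, 5 importers and 9 nucleoporins, among them the 4 outer ring genes followed here. Of these calls Nup160 was lost without ETV6 WT 1, ETV6 WT 2 or P214L 3 (adjusted p up to 0.122), Nup153 in 5 alternatives (up to 0.167) and Tnpo3 without ETV6 WT 2 (0.0523). Ranbp1 was higher by 0.85 ± 0.11 (adjusted p = 8.63e-06) and Nup210 by 0.80 ± 0.083 (adjusted p = 8.19e-07). Ran and Kpna2 were higher by 0.63 (adjusted p = 7.82e-06) and 0.63 (adjusted p = 3.41e-06). Xpo1 was higher by 0.44 ± 0.061 (adjusted p = 2.55e-05), Cse1l by 0.48 (adjusted p = 1.2e-05) and Kpnb1 by 0.33 (adjusted p = 0.000341). Nup205 was higher by 0.52, Nup85 by 0.53 and Nup107 by 0.48. Rcc1 was higher by 0.50, Ipo5 by 0.46, Xpo4 by 0.42, Nup133 by 0.36, Xpo5 and Nup50 by 0.33 each, Ipo7 by 0.32 and Nup155 by 0.31. Ipo9 and Nup160 were higher by 0.27 each, Tnpo3 by 0.24 and Nup153 by 0.21. Ipo11 (0.06), Tnpo2 (-0.14) and Nup188 (0.06) were not called between these constructs.

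I209S P214L against ZsGreen shows the construct with both changes against the marker alone. The median of the 45 was -0.45, beside 0.03 over all genes, and 9 of the 10 importers of the importin beta family fell while Tnpo2 rose. Nup210 fell by 1.16 ± 0.084 (adjusted p = 4.93e-09), Ranbp1 by 1.01 (adjusted p = 5.51e-07) and Kpna2 by 0.90 (adjusted p = 2.6e-08). Xpo1 fell by 0.68 ± 0.061 (adjusted p = 8.05e-08), Ran by 0.85, Cse1l by 0.67 and Kpnb1 by 0.71. The outer ring fell by 0.62 for Nup160, 0.65 for Nup133, 0.84 for Nup107 and 0.87 for Nup85. Nup50 fell by 0.73, Ipo5 by 0.70, Rcc1 by 0.69 and Nup205 by 0.63. Smaller falls, between those of Tnpo1 (-0.23) and Xpo5 (-0.54), were those of Ipo7, Ipo11, Nup62, Nup188, Xpo4, Ipo9, Nup54, Rangap1, Nup155, Nup93, Tnpo3, Xpot, Nup214, Nup153 and Ipo8. The calls of Tnpo1 and Ipo8 were lost without ZsGreen 2, and that of Tnpo1 also without I209S P214L 2. Ipo4, the gene with the lowest counts, had 25.8, 17.9 and 24.9 CPM in I209S P214L cells, 23.8, 27.5 and 24.2 CPM in P214L cells, 27.4, 23.6 and 32.5 CPM in ETV6 WT cells and 36.9, 30.2 and 30.7 CPM in ZsGreen cells and fell by 0.51 (adjusted p = 0.00986), although the call was lost without I209S P214L 2. Tnpo2 rose by 0.34 (adjusted p = 0.000651). Ranbp2 rose by 0.23 (adjusted p = 0.0253), a call lost without any 1 of the 3 ZsGreen libraries or without I209S P214L 3.

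I209S P214L against ETV6 WT asks whether the doubly altered protein acts like the unaltered one on these transcripts. None of the 45 genes was called, with edgeR, DESeq2 or limma-voom, and of all genes 0.0338% were called with edgeR. Without adjustment, edgeR and DESeq2 each passed 1 gene at the 0.05 threshold and limma-voom passed 0. With edgeR that gene was Nup210, at -0.18 ± 0.084 on the log2 scale, where 512 of all 14794 genes passed without adjustment. A p that misses the threshold does not show that the groups were alike. The 95% intervals of the 45 differences lay between -0.59 (Ipo4) and 0.25 (Xpo6) on the log2 scale, and 40 of the 45 estimates were below 0, with a median of -0.05, beside -0.01 over all genes. For Xpo1 the difference was -0.06 ± 0.061, with an interval from -0.19 to 0.07. For Ran it was -0.04 (interval -0.21 to 0.13), for Cse1l 0.02 (-0.12 to 0.15) and for Kpnb1 -0.11 (-0.24 to 0.02). In 3 genes every I209S P214L library was below every ETV6 WT library, where 4.38% of all genes were.

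I209S P214L and P214L differ by the second change, I209S. In I209S P214L cells against P214L cells 30 of the 45 genes were lower and none was higher, against 17.1% and 15.9% of all genes, and the median was -0.27, beside 0.00 over all genes. Nup210 fell by 0.99 ± 0.084 (adjusted p = 5.62e-08) and Ranbp1 by 0.86 ± 0.11 (adjusted p = 6.02e-06). Kpna2 fell by 0.69 (adjusted p = 1.08e-06), Ran by 0.67 (adjusted p = 3.15e-06) and Rcc1 by 0.59 (adjusted p = 2.12e-05). Xpo1 fell by 0.50 ± 0.061 (adjusted p = 4.93e-06) and ranked 10 from the lowest of the 45. Xpo4 fell by 0.49, Cse1l by 0.47, Xpo5 by 0.45 and Xpot by 0.21, which made 5 of 7 exportins. The call of Xpot was lost in 5 alternatives (adjusted p up to 0.124), among them without P214L 2, P214L 3, I209S P214L 2 or I209S P214L 3. Of the nucleoporins 14 of 17 fell, with the outer ring at -0.40 for Nup160, -0.41 for Nup133, -0.57 for Nup107 and -0.65 for Nup85. Nup205 fell by 0.54, Nup50 by 0.38, Nup155 by 0.32, Nup54 by 0.31, Nup62 by 0.30 and Nup153 by 0.26. The calls of Nup214 (-0.24), Nup188 (-0.23) and Nup93 (-0.18) were lost in 4, 8 and 7 alternatives, those of Nup54 in 2 and of Nup153 in 1. Among the importers Ipo5 fell by 0.54, Kpnb1 by 0.44, Ipo9 by 0.34, Ipo7 by 0.32, Tnpo3 by 0.27 and Tnpo1 by 0.23. The call of Tnpo1 was lost in 3 alternatives and that of Rangap1 (-0.21) in 5. Tnpo2 (0.11), Ranbp2 (0.10) and Ipo11 (-0.14) were not called.

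**Figure D4:**
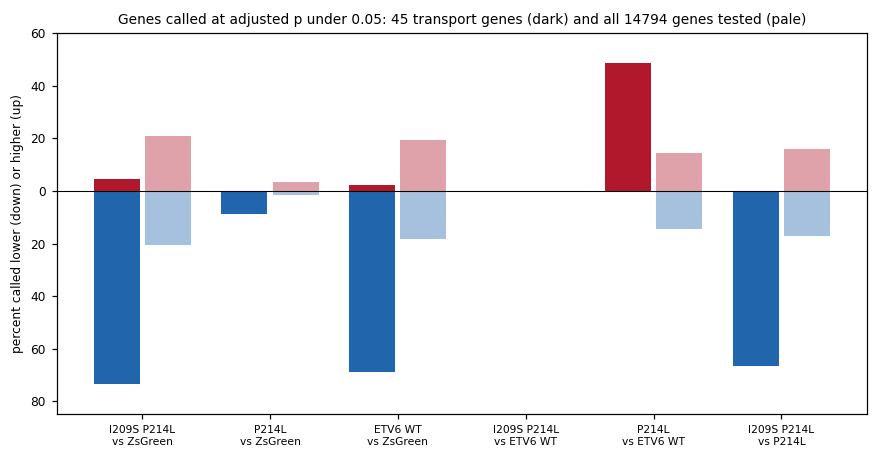
Percent of genes called higher (up, red) or lower (down, blue) at an adjusted p under 0.05 (y axis) in the 6 comparisons (x axis), for the 45 transport genes (dark) and all 14794 genes tested (pale). The transport genes were lower in 73.3%, 8.89% and 68.9% in I209S P214L, P214L and ETV6 WT cells against ZsGreen cells, higher in 48.9% in P214L against ETV6 WT cells, and lower in 66.7% in I209S P214L against P214L cells.

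The comparisons of ETV6 WT with ZsGreen and of I209S P214L with P214L have no library in common, so their values can be set side by side. Even so, deviations from the group means were correlated between ETV6 WT 1 and I209S P214L 1 (r = 0.528). The values of these comparisons may therefore not be independent. Across the 45 genes, which are not independent replicates, Pearson's r between the log2 fold changes was 0.936 and Spearman's rho 0.935, with the same sign in 41 genes. Over all 14794 genes r was 0.701 and 79.5% had the same sign. The slope of the second on the first was 0.809 in the 45 genes and 0.663 over all genes. Of the 32 genes called in ETV6 WT cells and the 30 called in I209S P214L cells 29 were in both, 90.6% of the first list and 96.7% of the second. Ipo11, Ipo8 and Tnpo2 were in the first list alone and Tnpo1 in the second alone, and differences between these changes were not tested. Over all 14794 genes 5580 and 4884 were called in these comparisons. How many of those were called in both was not counted, so the overlap of the 45 genes has no background here. Ipo11 was -0.45 in ETV6 WT against ZsGreen cells and -0.14 in I209S P214L against P214L cells, and Xpo4 was -0.38 and -0.49 in the same comparisons.

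**Figure D5:**
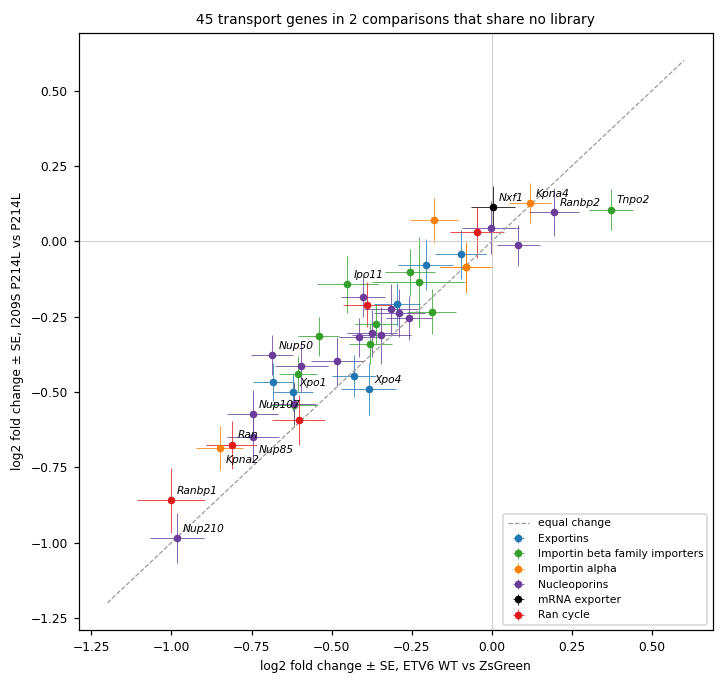
Log2 fold change with its SE for each of the 45 genes in ETV6 WT against ZsGreen cells (x axis) and I209S P214L against P214L cells (y axis), coloured by family, with a dashed line of equal change. The genes lie along a rising band (r = 0.936) from Ranbp1 and Nup210 at the lower left to Tnpo2 at the right.

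Between genes, levels were compared per length as FPKM. Ran had the highest level of the 45 in every group, at 148 FPKM in I209S P214L cells, 234 in P214L cells, 151 in ETV6 WT cells and 266 in ZsGreen cells. Kpnb1 and Kpna2 came next in every group. Kpnb1 had 61.9 FPKM in I209S P214L cells, 83.4 in P214L cells, 66.3 in ETV6 WT cells and 101 in ZsGreen cells. Xpo1 had 22.0 FPKM in I209S P214L cells, 30.9 in P214L cells, 22.8 in ETV6 WT cells and 35.2 in ZsGreen cells, a middle level that ranked between 11 and 15 of the 45. The summed level of the 7 exportins was 98.4 ± 2.23 FPKM in I209S P214L cells, 126 ± 2.09 in P214L cells, 100.2 ± 4.09 in ETV6 WT cells and 140.2 ± 1.30 in ZsGreen cells. Xpo1 made up 22.4 ± 0.537% of that sum in I209S P214L cells, 24.5 ± 0.0840% in P214L cells, 22.7 ± 1.04% in ETV6 WT cells and 25.1 ± 0.593% in ZsGreen cells. By the mean of the 4 groups the lowest levels were those of Xpo7, at 4.57 FPKM, and Xpo4, at 5.15 FPKM.

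Other genes of the pathway were counted in ETV6 WT cells against ZsGreen cells, where 18.2% of all genes were lower and 19.5% higher. Of 12 tested further nucleoporins 9 were lower and 1 was higher. Ahctf1, or ELYS, which seeds pores on chromatin, averaged 139 ± 11.0 CPM in ETV6 WT cells and 286 ± 10.6 CPM in ZsGreen cells (log2 fold change -1.04, adjusted p = 1.13e-08). Ndc1, a membrane nucleoporin, was the higher one, at 176 ± 18.7 CPM in ETV6 WT cells and 119 ± 9.09 CPM in ZsGreen cells (0.56, adjusted p = 2.21e-05). Of 9 further receptors and Ran factors 4 were lower, led by Nutf2, which imports Ran (-0.61), and 3 were higher, led by Ranbp6 (0.57). Of 24 genes of mRNA and ribosome export 9 (37.5%) were lower, among them the helicase Ddx39a (-0.48), and none was higher. The share called in this list was close to the 37.7% of all genes called in either direction. Of 9 lamina genes 5 were lower, among them the B-type lamin Lmnb1 (145 ± 9.45 CPM in ETV6 WT cells and 292 ± 11.9 CPM in ZsGreen cells), and 1 was higher, the A-type lamin gene Lmna (206 ± 44.9 and 54.7 ± 3.94 CPM in the same groups). In P214L cells against ZsGreen cells no further nucleoporin, receptor or export gene was called, and 3 lamina genes were lower, Lmnb1 (-0.32), Tmpo (-0.28) and Lmnb2 (-0.35). In I209S P214L cells against ETV6 WT cells none of these genes was called by edgeR. In I209S P214L cells against P214L cells 8 further nucleoporins were lower, Ahctf1 again among them (-1.08), and Ndc1 was higher (0.97).

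A list of 25 proliferation genes moved with the transport genes. Its summed level ranged over 4029 to 4184 CPM in I209S P214L cells, 5853 to 6012 CPM in P214L cells, 4120 to 4569 CPM in ETV6 WT cells and 6827 to 7122 CPM in ZsGreen cells. Of its 25 genes 24 were lower in ETV6 WT cells, 7 in P214L cells and 24 in I209S P214L cells, each against ZsGreen cells. Of all genes 18.2%, 1.61% and 20.7% were lower in those comparisons. In the list 23 were higher in P214L than in ETV6 WT cells, against 14.6% of all genes. Lower in I209S P214L than in P214L cells were 23, against 17.1% of all genes. None of the 25 was called between I209S P214L and ETV6 WT cells by edgeR. There 22 of them lay below 0 and 3 above, with a median of -0.13, beside -0.01 over all genes. Without adjustment 7 of the 25 passed the 0.05 threshold, where 512 of all 14794 genes did. In 5 every I209S P214L library lay below every ETV6 WT library, against 4.38% of all genes. Summed levels of markers of other lineages also differed between the groups, and most of these sums were carried by 1 gene. The 12 neutrophil and monocyte markers summed to 13.8 to 14.1 CPM in I209S P214L cells, 142 to 187 CPM in P214L cells, 15.99 to 18.01 CPM in ETV6 WT cells and 67.5 to 69.7 CPM in ZsGreen cells. The 8 mast cell and basophil markers summed to 2388 to 2920 CPM in I209S P214L cells, 1728 to 1809 CPM in P214L cells, 2334 to 3001 CPM in ETV6 WT cells and 1783 to 1875 CPM in ZsGreen cells. Gata2, a factor also of blood progenitors, made up at least 99.1% of that sum in every library. Without Gata2 the others summed to 3.56 to 4.30 CPM in I209S P214L cells and 10.3 to 16.4 CPM in P214L cells. They summed to 2.69 to 4.04 CPM in ETV6 WT cells and 7.13 to 10.0 CPM in ZsGreen cells. The I209S P214L and ETV6 WT libraries were thus the lower ones without Gata2 and the higher ones with it. The 7 erythroid markers summed to 320.1 to 447 CPM in I209S P214L cells, 129 to 184 CPM in P214L cells, 310.1 to 406 CPM in ETV6 WT cells and 157 to 165 CPM in ZsGreen cells. Without Hba-a1, an alpha globin gene, they summed to 107 to 116 CPM in I209S P214L cells, 114 to 147 CPM in P214L cells, 103 to 127 CPM in ETV6 WT cells and 122 to 135 CPM in ZsGreen cells, with overlap between the groups. The 13 B lineage markers summed to 718 to 758 CPM in I209S P214L cells, 453 to 487 CPM in P214L cells, 644 to 753 CPM in ETV6 WT cells and 324 to 353 CPM in ZsGreen cells, of which Ptprc, the CD45 gene of all white blood cells, made up at least 95.4% in every library. Without Ptprc the B lineage markers summed to 6.69 to 9.67 CPM in I209S P214L cells, 12.6 to 15.0 CPM in P214L cells, 8.46 to 9.77 CPM in ETV6 WT cells and 8.54 to 16.1 CPM in ZsGreen cells. Cd79b, a chain of the B cell receptor, averaged 6.93 ± 1.05 CPM in I209S P214L cells, 11.6 ± 1.12 CPM in P214L cells, 7.07 ± 0.689 CPM in ETV6 WT cells and 9.33 ± 3.08 CPM in ZsGreen cells (SD, n = 3). The 8 megakaryocyte markers summed to 654 to 749 CPM in I209S P214L cells, 839 to 903 CPM in P214L cells, 763 to 952 CPM in ETV6 WT cells and 1029.8 to 1092 CPM in ZsGreen cells, of which Itga2b made up at least 87.4% in every library. The 7 T lineage markers reached at most 4.16 CPM in any library, with Cd8a at 0, and the 6 fibroblast markers at most 0.508 CPM, with Col1a2, Col3a1, Lum and Pdgfra at 0. The part of these lists in the values of the transport genes was not tested.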

How the data were processed

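Poly-A RNA was sequenced, per the labels' protocols. Reads were aligned to mm39 with HISAT2 2.0.5 and counted with featureCounts 1.5.0-p3, per the submitters' processing notes. Which annotation was counted, and how the authors tested differences, is not given in the sources used here. The protocol describes both directional and non-directional libraries, so strandedness is unknown and reads of antisense neighbours may be mixed. An opposite-strand tested gene overlaps 15 of the 45 genes. For 7 of the 45 the neighbour exceeds 10% of their CPM.

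Raw read counts and FPKM were deposited per gene and library, and, per the file headers, each gene's length in bases and position. The deposited FPKM is the count divided by length and total, times a constant of each library (0.967 to 1.01). The authors also deposited log2 fold changes with p-values and adjusted p-values, used only where named, with signs turned where their direction was the other way round.

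Counts were tested with edgeR 4.0.16 in R 4.3.3: filterByExpr over the 4 groups (14794 genes), TMM scaling, 1 mean per group fitted to all 12 libraries by quasi-likelihood, 6 pairwise comparisons, 1 test across all 4 groups, and Benjamini-Hochberg adjustment over all genes tested. Intervals are 95% intervals of the fitted log2 fold change. Alternatives were DESeq2 1.42.0, limma-voom (limma 3.58.1), other size factors, other filters, other sets of libraries, each library left out and the replicate number as a block. The 45 genes were followed in all comparisons. By the rule for named genes these were, in each comparison, the members called there, with Xpo1, Ran, Cse1l and Kpnb1 also where not called, and from wider lists those called or with the 3 smallest adjusted p. The genes and lists were chosen with earlier results of these data known. Motifs were matched in RefSeq promoter windows of GRCm38.p6, an older build than that of the files, and no coordinate was converted.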

Additional observations from a re-analysis of the deposited data

How the results depend on the processing

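Of 123 called pairs of gene and comparison 101 kept their call under every alternative, 22 lost it in at least 1 and none changed sign, and of the 7 followed pairs not called 3 became called in an alternative, Xpo1, Ran and Cse1l in P214L against ZsGreen cells (lowest adjusted p 0.0314, 0.0183 and 0.0179). The number of the 45 genes called in P214L against ZsGreen cells, 4, was the only count to move by over 1.5 times. It was 12 with DESeq2, 7 with limma-voom, 15 with only the 6 libraries compared and 14 without both ETV6 WT 1 and I209S P214L 1. Without these and ZsGreen 1, an alternative chosen after seeing the data, it was 7. Over all genes tested the calls in P214L against ZsGreen cells went from 751 to 1188, 816, 1102, 1224 and 1031 in these fits. Leaving out each library in turn gave 2 to 8 there, 32 to 35 in I209S P214L against ZsGreen cells, 29 to 34 in ETV6 WT against ZsGreen cells, 19 to 25 in P214L against ETV6 WT cells, 24 to 30 in I209S P214L against P214L cells, and 32 to 36 for any difference among the groups. It gave 0 in every fit of I209S P214L against ETV6 WT cells. Calls lost most often were Ipo7 in P214L against ZsGreen cells (11 alternatives), and Nup188 (8) and Nup93 (7) in I209S P214L against P214L cells. The cause was not tested.

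Of 18 same-number pairs 2 had correlated deviations over 0.1 (-0.061 to 0.528). Both were between ETV6 WT and I209S P214L cells, at r = 0.528 for number 1 and 0.254 for number 3. Pairs of unlike number in these groups lay between -0.392 and 0.161. Of 12 libraries 8 correlated best with one of their own number. These values do not settle whether replicate numbers pair the libraries. ETV6 WT 1 and I209S P214L 1 were also the libraries with the least 18S ribosomal RNA. With the replicate block the counts were 35 in I209S P214L, 5 in P214L and 36 in ETV6 WT against ZsGreen cells, 23 in P214L against ETV6 WT cells, 30 in I209S P214L against P214L cells and 35 for any difference. With 3 libraries per group, small differences such as those between I209S P214L and ETV6 WT cells are resolved only to the width of the intervals given.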
